A study of Mus musculus with 7 samples.

Results

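The epidermis of the back and the epidermis of the ear of wild-type mice were compared by RNA sequencing of cells purified by flow sorting at postnatal day 50, with 1 library from each body site. The table holds 22552 genes, and the 12503 genes with at least 1 FPKM (mapped fragments per kilobase of the transcript, set against the number mapped in the library) in either library were compared. Both libraries carry the strain label CD1/C3H and the genotype Wt/Wt. The labels do not say how many mice gave cells to a library, nor which surface markers were used in the sort. Values from ear epidermis of the genotype Wt/Koa (called Koa ear epidermis here) and from Wt/Wt dorsal and ear dermis, with the same strain label and age and 1 library each, are given beside them where they bear on a result. Koa is a dominant allele known for hairy ears.

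Each value is a single library, which leaves the spread between replicates unknown, and neither a test nor a p-value between the body sites could be made. Differences are dorsal minus ear on the log2(FPKM + 1) scale, which understates the change of low genes, and a gene is counted as higher at a body site when it differs by at least 1. This threshold is called the size rule. Ratios of FPKM carry exact 95% intervals that cover counting error only, not variation between mice. In bulk samples, fewer cells of a type and less RNA per cell cannot be told apart.

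The epidermis is a layered sheet of keratinocytes. Basal cells divide and express keratins 5 and 14, the cells above them switch to keratins 1, 10, 2 and 77, and the outermost cells build the cornified barrier. Hair follicles and sebaceous glands are continuous with it, and resident T cells, Langerhans cells and melanocytes lie within it. Back and ear skin differ along the body axis, which cells record in their Hox genes, a family of clustered transcription factors whose members are switched on in order from head to tail.

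**Figure D1:**
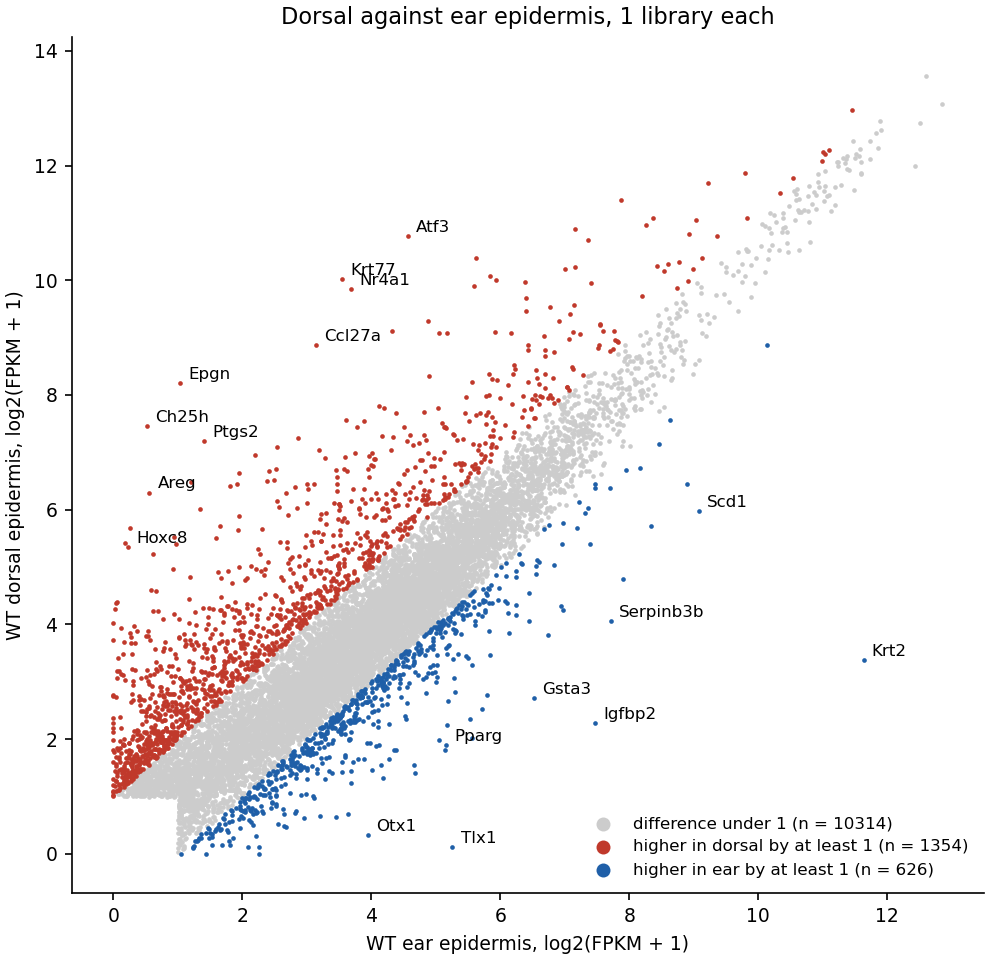
Level of each gene without short RNAs in WT ear epidermis (x axis) and WT dorsal epidermis (y axis), both as log2(FPKM + 1), 1 library each. Red points are the 1354 genes higher in dorsal and blue points the 626 genes higher in ear epidermis by at least 1; Krt2, Igfbp2 and Tlx1 lie furthest toward ear, and Epgn, Ch25h and Krt77 furthest toward dorsal.

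Of the 12503 genes, 1435 (11.5%) were higher in dorsal epidermis and 684 (5.47%) were higher in ear epidermis. The median difference was -0.02, and 55.6% of genes differed by less than 0.5. A difference of at least 2 was reached by 428 genes toward dorsal and 107 toward ear. Short RNAs, with transcripts under 300 nt, would have filled 27 of the 30 places of the genes furthest apart and were not named, because their FPKM is unstable. Among the genes that are not short RNAs, 11.0% were higher in dorsal and 5.09% in ear epidermis.

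The depth recovered from steps in the low FPKM values was 31.7 M (mega) fragments for dorsal and 40.4 M for ear epidermis. Genes with short transcripts leaned toward dorsal: the median difference was 0.55 for transcripts of 300 to 600 nt and -0.19 for those of at least 6000 nt. The FPKM of dorsal epidermis summed to 868855 and that of ear epidermis to 620232. When both libraries were scaled to equal totals the median of all genes moved by -0.44, and the counts became 874 genes higher in dorsal and 2108 higher in ear epidermis, so that 29.3% of the calls were toward dorsal against 67.7% on the deposited scale. Whether most genes lean to one side therefore depends on the scale. Of 43 list medians, 41 were lower with equal totals (median shift -0.43), while 5 of the 43 changed sign and 22 others moved by over 1.5 times. All 30 genes named for the largest differences kept their direction and stayed past the size rule under each scaling tried.

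The labelled tissue was checked against markers. The 14 genes of the basal keratinocyte list were all expressed, with 6878 FPKM of Krt5 in dorsal and 5801 in ear epidermis. Krt14 stood at 4082 and 5518 FPKM. Only 1 of the 14 passed the size rule, Krt15, a keratin of basal and follicle cells, at 8000.1 FPKM in dorsal and 2819 in ear epidermis. The median of this list was -0.06, or 0.09 with differences centred within classes of transcript length and -0.53 with equal totals. Markers of other cells were low. Of 15 expressed fibroblast genes, 7 were higher in dorsal and none in ear epidermis. Without Col1a1, Col1a2 and Col3a1, which are listed at 0 in dermal libraries, this list summed to 460.4 FPKM in dorsal and 324 in ear epidermis, or 2.65% of the sum in dorsal dermis and 1.38% of that in ear dermis. Col1a1, a main fibroblast collagen, stood at 19.6 and 3.19 FPKM. The endothelial sum was 7.04 against 1.74 FPKM and the macrophage sum 23.2 against 6.24 FPKM. These macrophage sums are 1.19% and 0.308% of those in dermis of the same site. None of the 10 mast cell genes reached 1 FPKM, and Fcer1a and Ms4a2 were listed at 0 in both libraries. Hba-a1, a globin of red blood cells, stood at 7.15 against 0.139 FPKM. The part these cells play in the results that follow was not tested.

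Hox genes differed widely between the body sites, all in the dorsal direction where they passed the size rule. Of the 24 Hox genes at 1 FPKM or more, 19 were higher in dorsal and none in ear epidermis: 5 of 8 in the Hoxa cluster (median difference 1.63), 8 of 9 in Hoxb (3.01), 4 of 5 in Hoxc (2.48) and both expressed members of Hoxd. The 3 Hoxa to Hoxc medians kept their sign under every scaling tried. Their size depended in part on the filter on low values. Once it was dropped, Hoxc fell to a median of 0.94, below 1, and Hoxa to 1.11, while Hoxb stayed at 3.01.

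The widest gap in Hoxa was at Hoxa5. It stood at 44.9 FPKM in dorsal and 0.917 in ear epidermis, a ratio of 49 (95% interval 38.1 to 64.1). Hoxa7 stood at 23.3 against 0.496 FPKM. The genes at the front end of the cluster, which are the first to be switched on toward the head, included a pair with smaller gaps: Hoxa2 was at 7.57 and 4.59 FPKM and Hoxa4 at 2.15 and 2.71, neither past the size rule. Hoxa3 (difference 1.67), Hoxa6 (2.26) and Hoxa9 (1.60) were higher in dorsal epidermis.

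In the Hoxb cluster, genes of the front end were expressed at both sites but not alike. Hoxb2 stood at 21.8 FPKM in dorsal and 4.65 in ear epidermis, and Hoxb3 at 7.72 and 2.54. Both passed the size rule toward dorsal, unlike Hoxa2 and Hoxa4. Hoxb4 to Hoxb9 were near or at 0 in ear epidermis. Hoxb6 stood at 19.9 against 0.0443 FPKM and Hoxb7 at 19.8 against 0.0232, the latter a single fragment in ear. Hoxb8, at 15.4 FPKM in dorsal, and Hoxb5, at 4.2, were listed at 0 in ear epidermis, so no ratio is given. Hoxb4 (3.54) and Hoxb9 (3.01) also passed the size rule, and Hoxb1 missed it at 0.99.

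In Hoxc, on chromosome 15, the widest gap was at Hoxc8 (chr15:102990539-102994275), with 39.8 FPKM in dorsal and 0.171 in ear epidermis, a ratio of 232 (95% interval 138 to 425). Hoxc6 stood at 18.3 against 0.0178 FPKM. Hoxc4 (2.48) and Hoxc5 (1.09) followed. Koa ear epidermis held 1.97 FPKM of Hoxc8 and 0.59 of Hoxc6, between both WT sites but nearer to WT ear. Hoxc13, which acts in hair and nail differentiation, was expressed at both sites, at 11.2 FPKM in dorsal, 6.52 in WT ear and 10.3 in Koa ear epidermis. Its difference of 0.70 did not pass the size rule. Of Hoxd genes, Hoxd8 stood at 5.82 FPKM in dorsal and was listed at 0 in ear epidermis, and Hoxd9 at 1.95 against 0.0261.

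**Figure D2:**
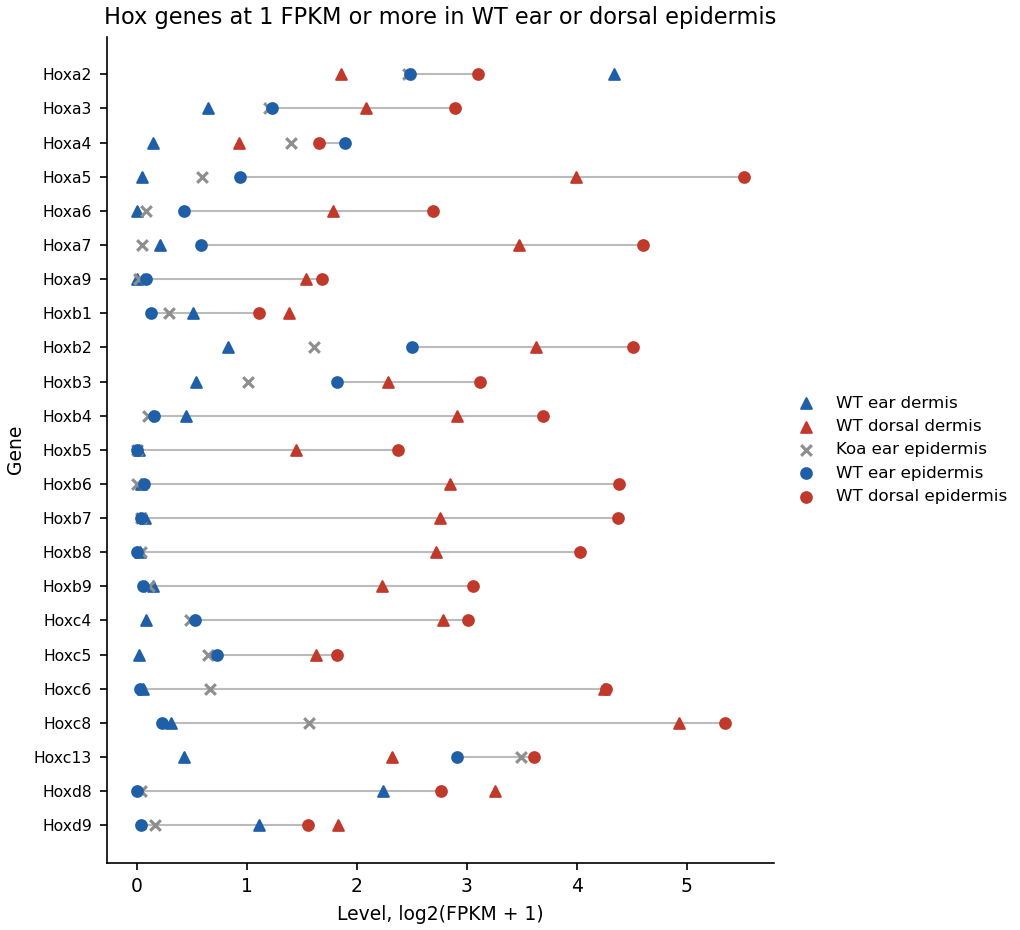
Level of 23 of the 24 Hox genes at 1 FPKM or more in WT dorsal or ear epidermis, as log2(FPKM + 1) on the x axis. Circles are WT epidermis, triangles WT dermis and crosses Koa ear epidermis, 1 library each; grey lines join dorsal and ear epidermis and are longest at Hoxc8 and Hoxa5 and short at Hoxa2 and Hoxa4.

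Dorsal and ear dermis, which share no library with the epidermis, gave medians of 1.49 for Hoxa, 2.47 for Hoxb and 2.70 for Hoxc. In dorsal dermis the median Hoxa gene stood at 45.7% of its level in dorsal epidermis, against 45.4% for the median basal keratinocyte gene. For Hoxb and Hoxc the shares were 50.0% and 98.6%. In ear dermis the shares of ear epidermis were 17.8% (Hoxa), 222% (Hoxb), 62.4% (Hoxc) and 10.1% (basal keratinocyte). The part of keratinocyte RNA in the dermal Hox values was not tested. Hoxc8 stood at 29.5 FPKM in dorsal and 0.241 in ear dermis. Hoxa2 went the other way in dermis: it was higher in ear dermis, at 19.3 against 2.61 FPKM, while in epidermis it was at 4.59 and 7.57.

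Of 22 other expressed positional transcription factors, 5 were higher in dorsal and 3 in ear epidermis. The median difference was 0.18, and it turned to -0.31 with equal totals. A pair of homeobox genes marked the ear. Tlx1 (chr19:45150092-45156943), a factor known for its part in spleen development, stood at 37.3 FPKM in WT ear and 39.8 in Koa ear epidermis against 0.0864 in dorsal epidermis, an ear to dorsal ratio of 431 (95% interval 188 to 1355). Otx1 (chr11:21994764-22001651), a factor of head and brain development, stood at 14.4 and 17.5 FPKM in the ears against 0.253 in dorsal epidermis, a ratio of 57.1 (95% interval 41.6 to 79). Both were low in dermis, where Tlx1 stood at 2.35 FPKM in ear and 0.0169 in dorsal. Irx4 was also higher in ear epidermis, at 23.9 against 9.8 FPKM. On the dorsal side were Lhx2, a hair follicle stem cell factor, at 72.3 against 19.4 FPKM, Tbx18 (difference 1.39), and the Iroquois genes Irx2 (1.39), Irx5 (1.39) and Irx3 (1.30).

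Immediate early genes are transcribed within minutes of a growth, stress or injury signal, without need for new protein. They include the AP-1 subunits of the Fos, Jun and Atf3 families and the Nr4a nuclear receptors. All 31 listed were expressed, and 30 were higher in dorsal epidermis; the exception, Dusp2, was at 2.25 and 1.31 FPKM. The median difference was 3.20. Atf3 (chr1:191170296-191183333), a stress-induced factor, stood at 1749.8 FPKM in dorsal, 22.7 in WT ear and 37.9 in Koa ear epidermis, a dorsal to WT ear ratio of 77.3 (95% interval 73.6 to 81.2). Nr4a1 stood at 915, 11.8 and 15.5 FPKM in the same order. Both ears were thus far below the back.

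The Fos family followed. Fos stood at 1905 FPKM in dorsal and 141 in ear epidermis, Fosb at 554 and 19.1, and Fosl1 at 50.5 and 0.198. Nr4a3, nearly silent in ear, stood at 42 against 0.133 FPKM. Csrnp1, a nuclear protein induced by Axin that is not in the list, was also among the genes furthest apart, at 123 against 3.57 FPKM. The list was higher in dorsal dermis as well, with a median of 2.91 over ear dermis. Its median gene stood in dorsal dermis at 47.4% of the dorsal epidermis level, and in ear dermis at 70.6% of the ear epidermis level. For basal keratinocyte genes these shares were 45.4% and 10.1%, and the part of keratinocyte RNA in the dermal median was not tested. How long the tissue of each site was handled before lysis is not given in the labels, and its part in these values was not tested.

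**Figure D3:**
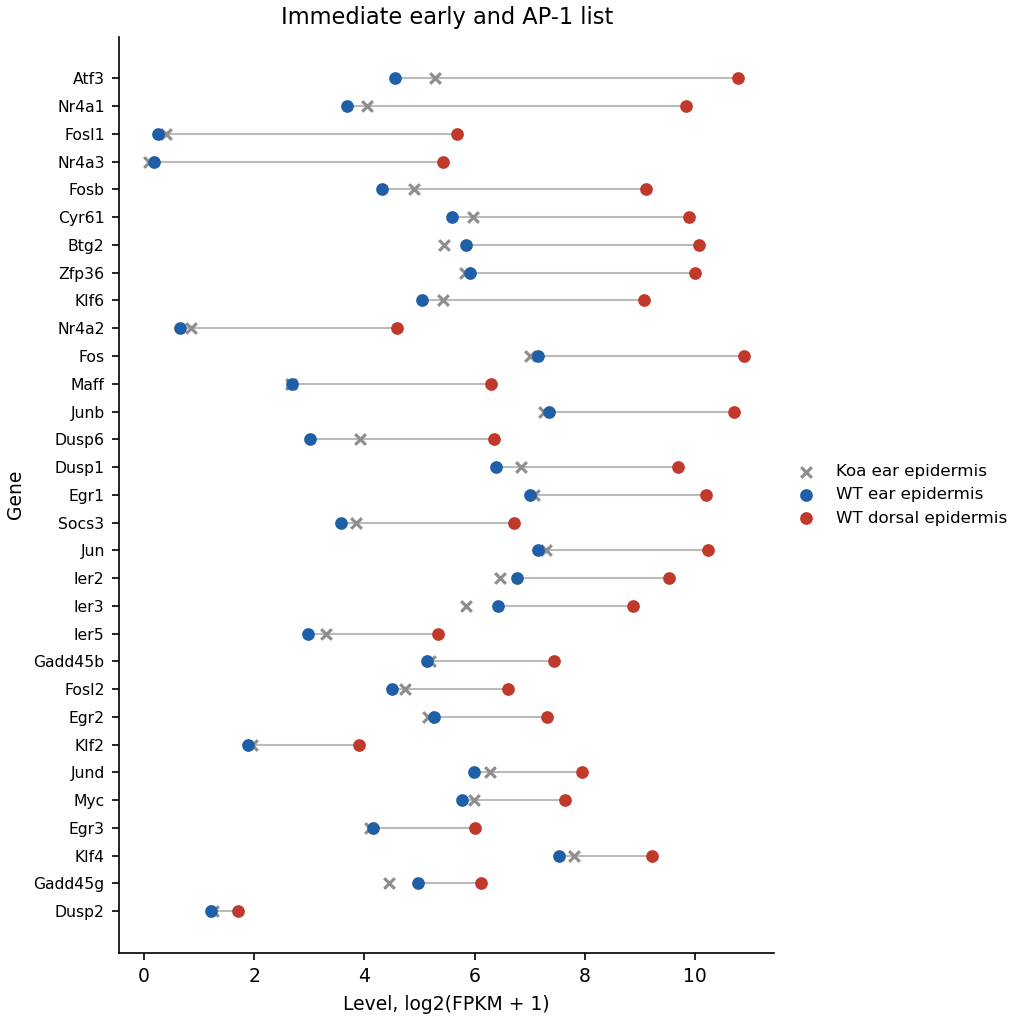
Level of the 31 immediate early and AP-1 genes as log2(FPKM + 1) on the x axis, ordered by the difference between WT dorsal (red) and WT ear epidermis (blue), with Koa ear epidermis as crosses, 1 library each. In every gene the red point lies to the right of the blue one, and in the 30 genes above Dusp2 by at least 1.

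Many early genes are known to carry the cAMP response element TGACGTCA, or its core TGACG, before their start, so the sequence was searched on both strands in the 250 bases before the most upstream RefSeq start (GRCm38.p6). The core was found before 12 of the 26 list members with an entry (46.2%), against 27.6% of the 9743 tested genes with an entry and 17.8% of all 27025 promoters. Core matches include those inside the full element. The full TGACGTCA lay before 2 of 26 (Btg2 and Dusp1; 7.69%), against 2.82% of tested genes and 1.60% of all. The AP-1 site was searched in the loose form TGANTCA, with any base at N. This form lay before 0 of 26, against 4.43% of tested genes and 6.85% of all. The CArG box that serum response factor binds lay before 1 of 26 (Zfp36; 3.85%), against 1.12% of tested genes and 1.41% of all. Bases further from the start than 250 were not searched. A match is a description of the sequence and not a measured site. The windows of 4 genes high in dorsal epidermis are shown because they hold the core in different numbers and places, with each core, or its reverse complement CGTCA, in capitals. Atf3 (chr1:191183334-191183583, minus strand) has 1 core, whose first base lies 7 bases before the start. Nr4a2 (chr2:57124004-57124253, minus strand) has 4, and Fos (chr12:85473640-85473889, plus strand) has 2. In Btg2 (chr1:134079156-134079405, minus strand), both cores overlap in the full palindrome.
Atf3: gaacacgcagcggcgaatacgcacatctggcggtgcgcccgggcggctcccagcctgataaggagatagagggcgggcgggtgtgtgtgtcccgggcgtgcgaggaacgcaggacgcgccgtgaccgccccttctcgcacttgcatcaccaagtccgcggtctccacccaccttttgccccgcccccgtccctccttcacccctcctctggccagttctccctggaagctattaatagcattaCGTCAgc
Nr4a2: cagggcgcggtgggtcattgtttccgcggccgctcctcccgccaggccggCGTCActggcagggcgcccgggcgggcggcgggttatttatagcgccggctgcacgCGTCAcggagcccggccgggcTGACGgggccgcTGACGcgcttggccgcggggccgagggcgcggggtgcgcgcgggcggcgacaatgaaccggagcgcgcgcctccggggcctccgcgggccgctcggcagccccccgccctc
Fos: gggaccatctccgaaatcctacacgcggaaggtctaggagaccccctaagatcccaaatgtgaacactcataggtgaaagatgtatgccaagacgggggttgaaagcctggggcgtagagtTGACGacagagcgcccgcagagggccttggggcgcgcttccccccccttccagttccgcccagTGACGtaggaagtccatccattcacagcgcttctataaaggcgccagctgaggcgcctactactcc
Btg2: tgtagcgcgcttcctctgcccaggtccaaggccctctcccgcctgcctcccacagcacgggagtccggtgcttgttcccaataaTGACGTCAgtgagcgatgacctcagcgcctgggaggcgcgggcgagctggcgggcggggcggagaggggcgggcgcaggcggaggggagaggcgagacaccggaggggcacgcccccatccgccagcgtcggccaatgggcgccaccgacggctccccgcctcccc

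Nr4a2 stood at 23 FPKM in dorsal and 0.574 in ear epidermis, and Btg2, which slows cell division, at 1076 and 56.5. Their differences were 3.93 and 4.23, against 3.74 for Fos and 6.21 for Atf3.

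Heat shock chaperones, which refold proteins under stress, were higher in dorsal epidermis for 9 of 16 members and higher in ear for none (median 1.27, and 0.79 with equal totals). Hspb1, a small heat shock protein, stood at 1340.4 FPKM in dorsal, 48.1 in WT ear and 118 in Koa ear epidermis. Dnajb1 stood at 549.6 against 59.5 FPKM, Hspb8 at 208 against 27.3, and Hsph1 at 42.7 against 8.31. The members with high levels at both sites, such as Hsp90ab1 at 1573 and 1184 FPKM, did not pass the size rule.

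The ligands of the EGF receptor drive keratinocyte growth and wound closure. Of 11 expressed ligand and receptor genes of the wider EGF receptor family, 4 were higher in dorsal and 1 in ear epidermis (median 0.49). Epgn (chr5:91027517-91035212), which encodes epigen, differed most toward dorsal of all genes that are not short RNAs: it stood at 295 FPKM in dorsal, 1.04 in WT ear and 2.41 in Koa ear epidermis, a dorsal to WT ear ratio of 284 (95% interval 224 to 369.8). Areg (amphiregulin, chr5:91139599-91148432), which lies near Epgn on chromosome 5, stood at 77.7 against 0.473 FPKM, a ratio of 164 (95% interval 107 to 278). Ereg, which lies between them, stood at 2.12 against 0.227 FPKM. Hbegf stood at 104 against 4.72 FPKM. Nrg4, a neuregulin of the wider family, was the member higher in ear, at 10.7 against 2.03 FPKM. The receptor gene Egfr did not pass the size rule, at 28.3 and 52 FPKM.

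Enzymes that make prostaglandins and lipoxygenase products were higher in dorsal epidermis in 7 of 12 cases and higher in ear in none. Their median was 1.39, and 0.44 without the filter on low values. Ptgs2, the inducible cyclooxygenase, stood at 146 FPKM in dorsal, 1.64 in WT ear and 2.38 in Koa ear epidermis, a ratio of 88.9 (95% interval 79.1 to 101). Alox12e, an epidermal lipoxygenase, stood at 189 against 11.2 FPKM, with 36.1 in Koa ear. Hpgds (2.59) and Ptgs1 (2.41) followed. Ch25h, which makes 25-hydroxycholesterol, followed Epgn as the gene furthest toward dorsal: it stood at 175 FPKM in dorsal, 0.431 in WT ear and 0.344 in Koa ear epidermis.

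A pair of suprabasal keratins differed in opposite directions. Krt77 (chr15:101858731-101869706) and Krt2 (chr15:101810689-101818956) are type II keratin genes that lie near each other on chromosome 15. Krt2 stood at 3174 FPKM in WT ear, 2591 in Koa ear and 9.4 in dorsal epidermis, an ear to dorsal ratio of 338 (95% interval 314 to 364) and the largest ear difference of all genes that are not short RNAs (-8.25). Krt77 stood at 1034 FPKM in dorsal, 10.7 in WT ear and 28.8 in Koa ear epidermis, a dorsal to ear ratio of 96.7 (95% interval 91.3 to 102). The back thus carried Krt77 and almost no Krt2, and the ear the reverse. Of the 13 genes of the suprabasal list, 5 were higher in dorsal epidermis, Krt77 among them, and Krt2 alone was higher in ear. The list's median was 0.64, and 0.15 with equal totals. Sbsn stood at 991 against 169.5 FPKM, Dmkn at 1221 against 343, and Krt1 at 1248 against 386. Krt10, the usual partner of Krt1 and Krt2, was at 3219 and 2495 FPKM and did not pass the size rule.

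Of 28 expressed cornified envelope and barrier genes, 14 were higher in dorsal and 1 in ear epidermis (median 0.94). Lce1m stood at 10.2 against 0.221 FPKM, and Sprr1a, a precursor of the envelope, at 346 against 93.3. Lor (difference 1.54), which encodes the envelope protein loricrin, was also higher in dorsal epidermis. Tgm3, a transglutaminase that crosslinks envelope and hair proteins, went the other way, at 35.1 FPKM in WT ear and 39.9 in Koa ear against 3.76 in dorsal epidermis. The Lce and Sprr genes have short transcripts, a class that leaned toward dorsal as a whole. With differences centred within classes of transcript length the median of the barrier list was 0.70, and with equal totals 0.57. The part of transcript length in these values was not tested.

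Keratins and alarmins of wounded or stressed skin were higher in dorsal epidermis in 10 of 13 cases (median 1.67). Krt16 stood at 136 FPKM in dorsal, 4.79 in WT ear and 22.1 in Koa ear epidermis. Krt17, which also marks the hair follicle, stood at 1987 against 306 FPKM. Without short RNAs the list's median was 1.47, and with differences centred within classes of transcript length it was 1.12. Lcn2, which encodes lipocalin 2, was the 1 member higher in ear epidermis, at 6.44 against 1.75 FPKM.

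Among protease genes, 8 of 20 expressed kallikreins and protease inhibitors were higher in dorsal and 3 in ear epidermis (median 0.84). Klk8 (difference 2.43), Klk5 (1.86) and Klk9 (1.78), serine proteases that take part in shedding of the outer layer, were on the dorsal side. The 3 on the ear side were inhibitors: Serpinb3b at 209 against 15.7 FPKM, Slpi at 18.4 against 2.16, and Serpinb3c at 5.26 against 0.629. Slpi was low in Koa ear epidermis, at 4.03 FPKM. Serpinb3b and Serpinb3c are near copies, so reads may have been split between them.

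The keratins of growing hair named here were low at both sites and higher in dorsal than in WT ear epidermis. Of 10 expressed genes of the inner root sheath list, 6 were higher in dorsal and none in ear epidermis. Their median was 1.53, and 0.82 without the filter on low values. The whole list was not low: it summed to 1181 FPKM in dorsal, 644 in WT ear and 837 in Koa ear epidermis. It shares a member with the list of the sebaceous gland and infundibulum, so it does not mark growing follicles alone. Krt75 stood at 11.9 FPKM in dorsal, 0.743 in WT ear and 22.2 in Koa ear epidermis. Krt71 stood at 7.55, 0.93 and 31.9 FPKM in that order. Koa ear epidermis, from ears known for their hair, was thus above both WT sites in these keratins. Levels of these keratins were low in all 3 libraries next to basal keratins. Krt73 (1.93) and Krt28 (1.68) were also higher in dorsal than in WT ear epidermis. Of 5 expressed hair shaft keratins, 3 were higher in dorsal epidermis: Krt35 at 9.23 against 1.91 FPKM, Krt85 at 5.12 against 0.798, and Krt32 at 24.3 against 8.64.

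Of 23 expressed genes of follicle stem cells, 7 were higher in dorsal and none in ear epidermis (median 0.52, and 0.05 with equal totals). Cd34, a surface marker of bulge stem cells that is also made by fibroblasts and endothelium, stood at 65.9 FPKM in dorsal and 10.4 in ear epidermis. Fst, which encodes follistatin, stood at 142 against 25.6 FPKM. Fgf18, which holds follicles at rest, stood at 29.6 against 8.29. Dermis held far more Cd34, at 361 FPKM in dorsal and 212 in ear. Among 17 hair matrix factors, Ovol1 (2.60), Shh (2.30) and Ctgf (1.09) were higher in dorsal epidermis and Edar (-1.04) in ear. The median of these factors was 0.47, and 0.15 with equal totals. Their counts are near the background, since 11.5% of all genes were higher in dorsal and 5.47% in ear epidermis. Edar encodes the receptor of ectodysplasin, which starts hair follicles.

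Of the lists, that of the sebaceous gland held the most genes past the size rule toward ear. Sebocytes fill with wax esters and triglycerides and burst to release sebum. Of 25 expressed genes of the sebaceous gland and infundibulum, 13 were higher in ear and 4 in dorsal epidermis, and the median was -1.02, ranging from -1.55 to -0.76 over the alternative settings. Far2, which makes fatty alcohols, stood at 46.2 FPKM in WT ear, 36.1 in Koa ear and 3.06 in dorsal epidermis, an ear to dorsal ratio of 15.1 (95% interval 13.5 to 16.9). Soat1, which esterifies cholesterol, stood at 24.6, 15.7 and 1.65 FPKM. Pparg, the nuclear receptor that drives sebocyte differentiation, stood at 34.7, 21.5 and 2.72 FPKM. Both ears were above the back for all 3.

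Scd1, the desaturase of sebaceous lipids, had the highest level of the list's members in ear epidermis, at 539.7 FPKM in ear and 61.8 in dorsal epidermis. Not every member followed: Insig1, a brake on sterol synthesis, stood at 80.3 FPKM in dorsal and 19 in ear epidermis. Defb6, a defensin of the infundibulum, stood at 1798 against 488 FPKM and Cst6, a protease inhibitor, at 228 against 96. The 4 members higher in dorsal epidermis were these 3 and Gata6, a factor of the sebaceous duct. In dermis the same list had a median of -0.03.

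**Figure D4:**
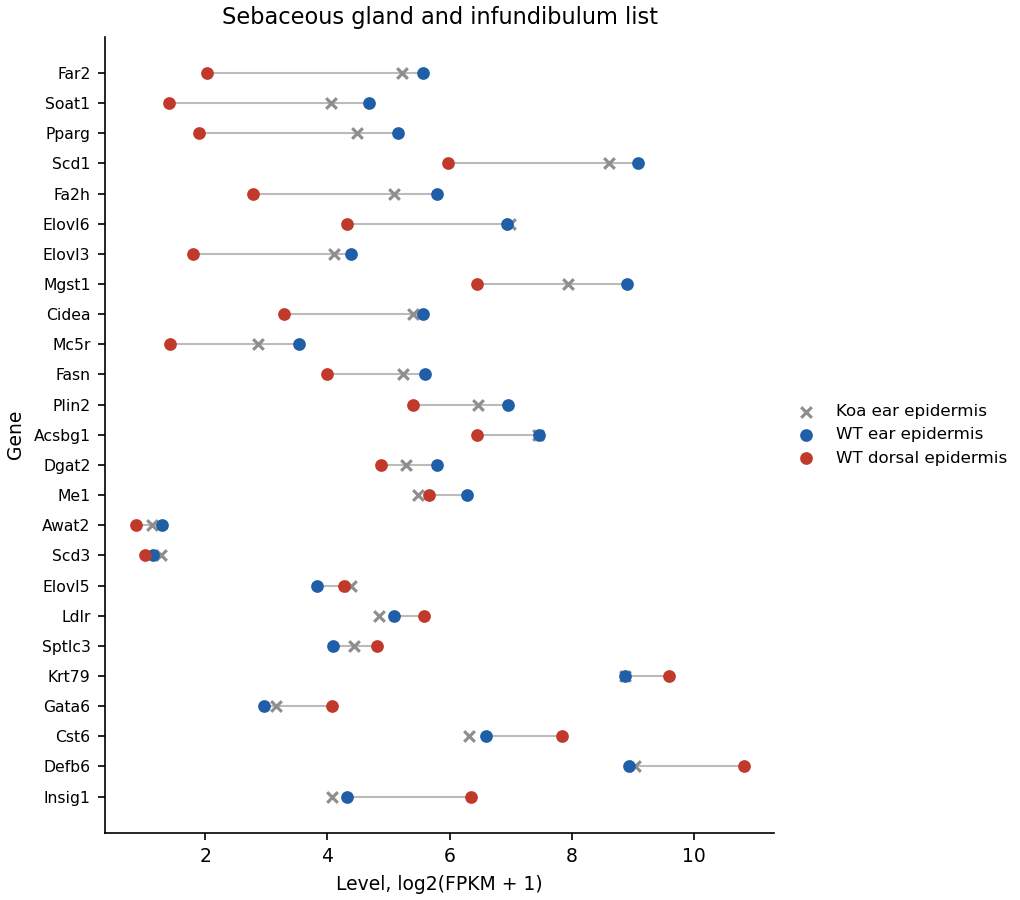
Level of the 25 expressed genes of the sebaceous gland and infundibulum as log2(FPKM + 1) on the x axis, ordered by the difference between WT dorsal (red) and WT ear epidermis (blue), with Koa ear epidermis as crosses, 1 library each. The 13 genes at the top, from Far2 to Acsbg1, are higher in WT ear by at least 1, and the 4 at the bottom, from Gata6 to Insig1, in dorsal epidermis.

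Genes outside the sebaceous list were also on the ear side. Igfbp2, which binds insulin-like growth factors, was second to Krt2, at 177 FPKM in WT ear, 124 in Koa ear and 3.85 in dorsal epidermis, a ratio of 46 (95% interval 38.9 to 55.2). The other 9 expressed genes of the IGF pathway held 1 gene past the size rule, Igfbp3 at 483 against 227 FPKM toward dorsal. That count is near the background, since 11.5% of all genes were higher in dorsal and 5.47% in ear epidermis. Of 23 expressed genes of xenobiotic and glutathione metabolism, 5 were higher in ear and 2 in dorsal epidermis (median -0.05). The dorsal count is not above the 11.5% of all genes. Gsta3, a glutathione transferase, stood at 91 against 5.58 FPKM, and Gclc, which starts glutathione synthesis, at 47.5 against 15.7. Cyp1a1, a target of the aryl hydrocarbon receptor, went the other way, at 38.9 against 3.73 FPKM. Mmp3, a matrix protease, stood at 45 FPKM in WT ear, 90.3 in Koa ear and 4.13 in dorsal epidermis. Sccpdh (-3.20) and 9030425E11Rik (-3.11) were also among the 15 genes furthest toward ear.

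Clock genes went both ways. The clock runs as a daily loop in which Arntl and Clock switch on the Per, Cry, Nr1d and PAR bZIP genes. Of 18 expressed members, 8 were higher in ear and 3 in dorsal epidermis (median -0.50). Bhlhe41 stood at 34.2 FPKM in WT ear, 12.8 in Koa ear and 2.52 in dorsal epidermis. Tef, a PAR bZIP factor, stood at 69, 37.7 and 13.4 FPKM, and Per2 at 5.42, 1.65 and 0.392. Koa ear lay between both WT libraries in these 3 genes. Nfil3, a repressor that competes with the PAR bZIP factors, was higher in dorsal epidermis, at 65 against 4.93 FPKM, as were Bhlhe40, at 206 against 19.9, and Per1, at 56.5 against 10.2. The time of day at which each library was collected is not given in the labels, and its part was not tested. Dermis gave a median of -1.16 for the list.

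Of 37 cell cycle genes, 3 passed the size rule, all toward ear, and 34 lay below 0 (median -0.77, and -1.20 with equal totals). Set beside the 5.47% of all genes past the rule toward ear, this count is near the background. Mki67, a marker of dividing cells, stood at 20.4 FPKM in dorsal and 52.2 in ear epidermis. Aurkb stood at 6.86 against 18.4 FPKM and Cdt1, which licenses replication origins, at 7.93 against 18.

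Antigen presentation genes were higher in dorsal epidermis. Class I molecules show peptides of the cell's own proteins to T cells. Of 20 expressed genes of class I and its peptide supply, 18 were higher in dorsal and none in ear epidermis (median 2.43). B2m, the light chain of every class I molecule, stood at 2686 FPKM in dorsal, 232 in WT ear and 249.8 in Koa ear epidermis. H2-Q7 stood at 88.4 against 1.31 FPKM, H2-Q6 at 44.6 against 2.01, and H2-M3 at 13.8 against 0.446. H2-Q6 and H2-Q7 are near copies and class I alleles vary between strains, so single H2 values are uncertain where reads could be split. B2m has no such copy among the genes named.

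Of 8 expressed class II genes, 7 were higher in dorsal epidermis (median 1.78, and 1.44 without the filter on low values). Cd74, the invariant chain, stood at 20.9 against 3.85 FPKM, H2-Aa at 9.67 against 1.75, and H2-Eb1 at 5.26 against 0.726. H2-Ea-ps was also higher (2.33). The class II sum in dorsal epidermis was 3.49% of that in dorsal dermis, and the sum in ear epidermis 0.462% of that in ear dermis. Of 25 expressed interferon-stimulated genes, 15 were higher in dorsal and none in ear epidermis. Their median was 1.30, and 0.83 without the filter on low values. Cxcl10 stood at 30.3 against 0.893 FPKM, Gbp2 at 10.3 against 0.11, and Isg15 at 18.2 against 1.93. These genes were low at both sites next to B2m.

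Chemokine genes showed a wide dorsal lean: 12 of 14 expressed members were higher in dorsal and none in ear epidermis. Their median was 2.34, and 1.36 without the filter on low values. Ccl27a, which draws T cells into skin, stood at 469 FPKM in dorsal, 7.84 in WT ear and 29.6 in Koa ear epidermis, a dorsal to WT ear ratio of 59.8 (95% interval 52.8 to 68). Cxcl14 stood at 542, 35.2 and 125 FPKM. Ccl7, which draws monocytes, stood at 14.8 against 0.25 FPKM. Koa ear was above WT ear for Ccl27a and Cxcl14.

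Markers of immune cells themselves were low. The T cell and Langerhans list summed to 259.98 FPKM in dorsal and 109 in ear epidermis, mostly from Epcam and Thy1, and Cd207, which defines Langerhans cells, stood at 0.905 and 0.224 FPKM. Of 9 expressed T cell and Langerhans genes, 6 were higher in dorsal epidermis. Their median was 1.32, and 0.36 without the filter on low values, which Cd52 and Cd7 passed through dorsal epidermis alone. Cd52 stood at 3.38 against 0.497 FPKM, Cd7 at 1.81 against 0.118, and Epcam, which keratinocytes of the follicle also make, at 154 against 58.4. The macrophage list had 5 expressed members, 3 of them higher in dorsal epidermis, with Ccl9 (1.98), Tyrobp (1.76) and Lyz2 (1.01). Of the pigment cell list, Mc1r, the receptor of melanocortin, stood at 2.61 against 0.379 FPKM and Tyr, the key enzyme of melanin, at 4.52 against 1.44, as 2 of 5 expressed members higher in dorsal epidermis.

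Signalling pathways had members on both sides. Of 12 expressed Wnt ligands and R-spondins, 5 were higher in dorsal and 1 in ear epidermis. Their median was 0.92, and 0.17 without the filter on low values. Rspo3, which amplifies Wnt signals, stood at 11.8 FPKM in dorsal, 0.203 in WT ear and 1.67 in Koa ear epidermis. Wnt3 stood at 34.2 against 5.66 FPKM and Wnt11 at 4.59 against 0.345. Wnt5b was the member higher in ear, at 3.75 against 1.24 FPKM. The secreted inhibitors Wif1 (2.16) and Notum (1.36) were higher in dorsal epidermis, as 2 of 7. Of 14 Wnt targets 2 were higher in dorsal and 1 in ear epidermis, and their median of 0.24 turned to -0.21 with equal totals. Set beside the 11.5% and 5.47% of all genes, these counts of targets are near the background. The targets past the rule were Notum and Lgr5 (1.24) toward dorsal and Nkd2 (-1.36) toward ear.

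In the BMP pathway, antagonists and targets were higher in dorsal epidermis in 8 of 13 cases (median 1.28, and 0.85 with equal totals). Grem1, an antagonist, stood at 19.1 against 2.38 FPKM. The targets Id3, at 365 against 73 FPKM, and Id1, at 441 against 103, were on the same side as the antagonists. Of 11 BMP and TGF-beta ligands, Bmp2 (1.87), Bmp4 (1.87) and Bmp3 (1.57) were higher in dorsal and Tgfb3 (-1.05) in ear epidermis. The ligand median of -0.04 turned to 0.02 with differences centred by transcript length.

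Of 12 expressed Notch genes, 4 were higher in dorsal epidermis (median 0.44), led by the targets Hes1, at 705 against 83.3 FPKM, and Nrarp, at 147 against 27.8. Of 8 Hedgehog genes, 2 were higher in dorsal epidermis, among them the ligand Shh at 4.25 against 0.0703 FPKM; the list's median of 0.34 turned to -0.05 with equal totals. Of 9 FGF genes, Fgfbp1 (2.35), Fgf18 (1.72) and Fgf9 (1.24) were higher in dorsal epidermis, with a median of 0.17 that turned to -0.18 with equal totals. Of 16 retinoid genes, 4 were higher in dorsal epidermis and Stra6 (-1.08) in ear; Rbp2, a retinol carrier, stood at 12.3 against 0.476 FPKM and Crabp2 at 71.8 against 19.2, and the median of 0.38 turned to -0.07 with equal totals. Of 6 connexins, Gjb2 stood at 11.1 FPKM in dorsal, 1.96 in WT ear and 45 in Koa ear epidermis, and Gjb6 (1.56) was also higher in dorsal epidermis. Mutations of both are known from deafness and skin disease.

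Some single genes of other lists were also past the size rule. Pmp22, a myelin and junction protein, stood at 43 against 8.27 FPKM. Fabp4, a fatty acid carrier of adipocytes and capillaries, stood at 13.9 against 0.283 FPKM, and Lpl, which splits blood triglycerides, went the other way, at 7.34 against 37.8. Adipoq, which defines adipocytes, stood at 0.184 FPKM in dorsal and was listed at 0 in ear epidermis.

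**Figure D5:**
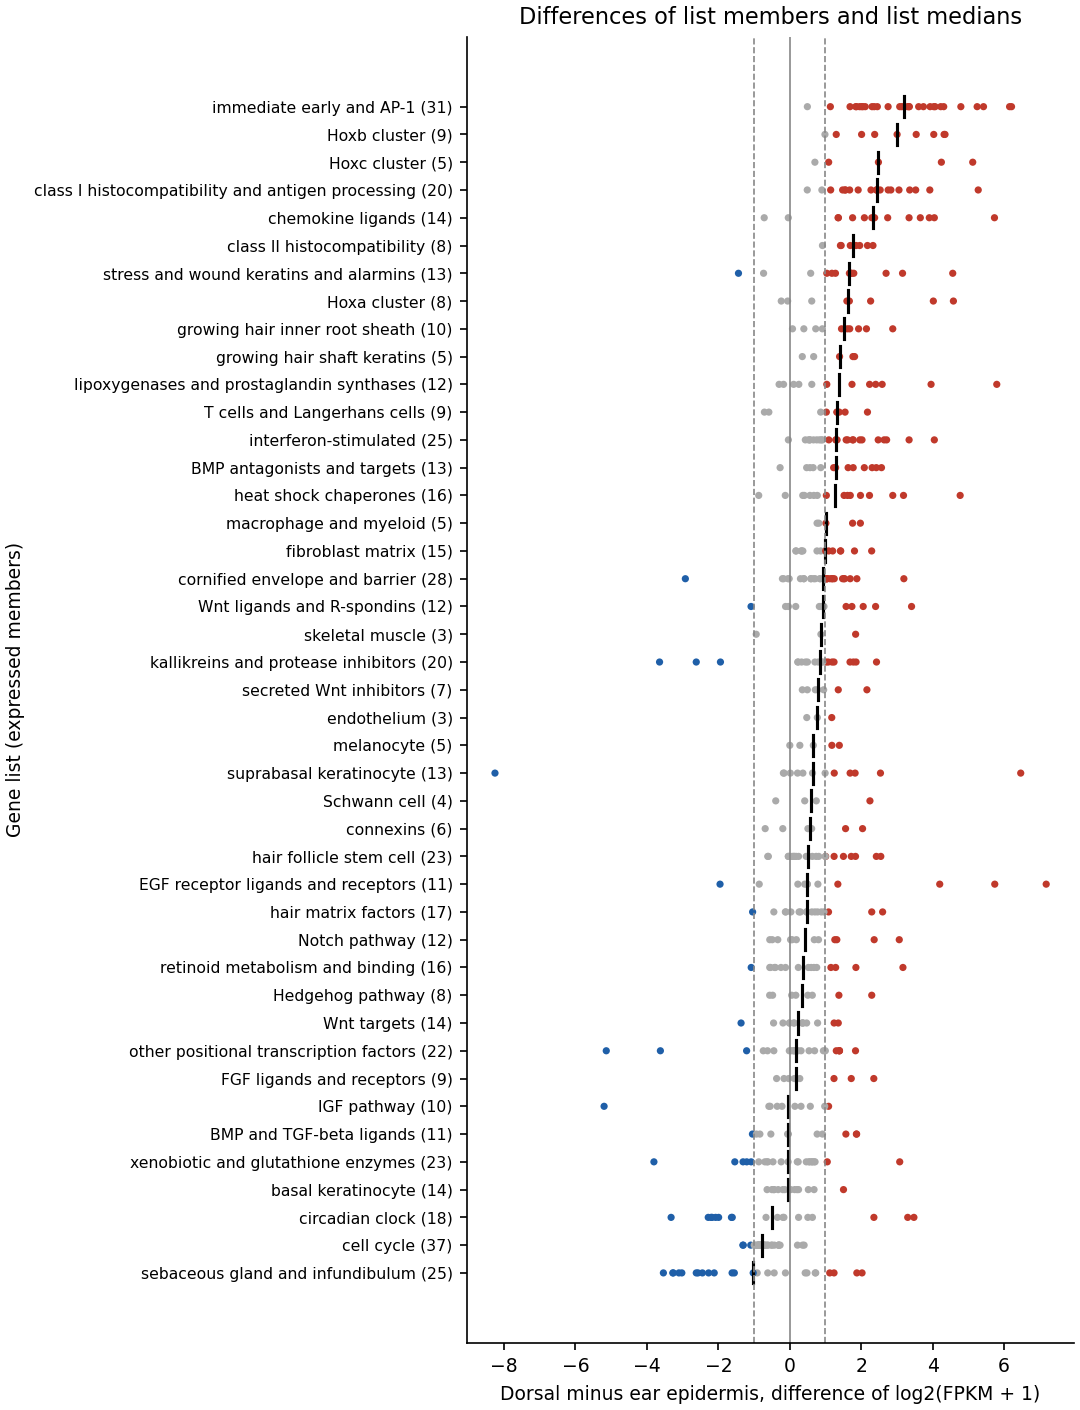
Difference of each expressed member, dorsal minus ear epidermis on log2(FPKM + 1) (x axis), for the gene lists with at least 3 expressed members (number in brackets), ordered by their median (black bar). Red and blue points pass the size rule (dashed lines at 1 and -1) toward dorsal and ear; the medians run from 3.20 for immediate early genes to -1.02 for the sebaceous gland list.

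The dermis of the same sites gave a separate pair of libraries, and the labels do not say whether they came from the same mice. Over the 12146 genes compared in both layers, 11.3% were higher in dorsal dermis and 4.58% in ear dermis. Of the 1382 genes higher in dorsal epidermis, 11.4% of those compared, 779 (56.4%) were also higher in dorsal dermis, which is 56.5% of its 1378. Of the 619 genes higher in ear epidermis, 5.10% of those compared, 167 (27.0%) were also higher in ear dermis, which is 30.0% of its 556. The dermal libraries held keratinocyte RNA in unequal amounts: the median basal keratinocyte gene stood in dorsal dermis at 45.4% of its level in dorsal epidermis, and in ear dermis at 10.1% of its level in ear epidermis. The part of this RNA in the shared counts and in the dermal medians given above was not tested. Opposite directions were taken by 36 genes higher in dorsal epidermis and 18 higher in ear epidermis.

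The size rule cuts a continuous range. Just inside it on the dorsal side lay 1110005A03Rik, Gcnt2, Shb and Jmjd8, and just outside Mtmr11, Stk40, Nthl1 and Mall. On the ear side Adck3, 2310079F23Rik, Rpa2 and Map3k9 lay just inside and Utp20, Suv39h1, Kif20a and Skp2 just outside. Shb stood at 8.95 FPKM in dorsal and 3.97 in ear epidermis, and Stk40 at 24.6 and 11.8. On the ear side Rpa2 stood at 29.3 FPKM in ear and 14.1 in dorsal epidermis, and Utp20 at 14.3 and 6.64. The most abundant genes were alike at both sites: Tpt1p, Eef1a1, Krt5, Rpl41 and Apoe were among the top 6 of each, with Krt15 the remaining member in dorsal and Krt14 in ear epidermis.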

How the data were processed

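RNA of flow-sorted skin cells was measured in 7 libraries, of which WT dorsal and WT ear epidermis are compared here. The FPKM values are those the authors deposited. The submitters' processing notes name the aligner TopHat2 2.0.13, the quantifier Cufflinks 2.2.1 and the builds GRCm38 and mm9, without a role for either build. The gene annotation and the use of strand are not given in the sources used here, so overlapping and antisense genes cannot be told apart. Misspelled column names were assigned through the sample titles.

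Genes with at least 1 FPKM in either library were kept, 1 was added before taking log2, and a difference of at least 1 was counted. Depth was recovered from the steps that whole fragments leave in low FPKM values: 73.8% of 1856 dorsal values lay within 0.2% of a step set by ear. That share bears on the ratio of both depths. Their absolute size rests on fewer genes: 67 of 250 genes with a single reference transcript gave nearly the same depth. Fragment numbers use these depths and the longest GENCODE M21 transcript, and ratio intervals are exact (Clopper-Pearson, scipy 1.17.1). The procedures were tested on simulated data. Positions and promoters are from RefSeq (GRCm38.p6), to which 12390 of the 12503 symbols matched.

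Named are every expressed Hox gene, the 15 genes with the widest difference toward each site (5 FPKM or more, no short RNAs), up to 4 members of each list, or up to 3 in each direction where members went both ways, the 6 most abundant genes and the 4 on each side of the size rule. The members and the 49 lists were chosen with earlier results of these data known. Irx3, Irx5, Hsp90ab1, Krt1, Krt10, Nr4a2, Fos, Btg2, Dusp2, Dusp1, Zfp36, Ereg, Egfr, Cd207, Thy1, Gata6, Acsbg1, Fcer1a, Ms4a2 and Adipoq fall outside this rule and were chosen after their values were seen. A few genes are not reported here.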

Additional observations from a re-analysis of the deposited data

Results flagged for a closer look

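Among the genes chosen by the naming rule, 3 had opposite signs of dorsal minus ear in the layers and passed the size rule in both. The other list members were not searched for this. Over all genes compared in both layers, 36 higher in dorsal epidermis and 18 higher in ear epidermis took opposite directions. The difference between layers was not tested, since each group has 1 library. Wif1, a secreted Wnt inhibitor, differed by 2.16 in epidermis and by -3.05 in dermis, with 13.2 FPKM in dorsal epidermis, 2.19 in ear epidermis, 25.6 in dorsal dermis and 218 in ear dermis. Ctgf, a matrix-associated growth factor and target of Yap signalling, differed by 1.09 in epidermis and by -3.12 in dermis, where it stood at 58.2 FPKM in dorsal and 513 in ear. Wnt11 differed by 2.06 in epidermis and by -1.42 in dermis, with 3.14 FPKM in dorsal and 10.1 in ear dermis.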

How the results depend on the processing

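With a pseudocount of 5 the counts fell to 751 genes higher in dorsal and 249 higher in ear epidermis, 6 instead of 17 lists had a median of at least 1 in size, and the genes shared with dermis came to 397 (dorsal) and 51 (ear); with 0.1 the shared ear genes came to 288. With equal totals the counts were 874 and 2108, so that the larger side changed from dorsal to ear, and with equal totals without short RNAs, a setting chosen after seeing the data, 897 and 1891. Without a filter on low values 9 lists had such a median. Those that fell below it included Hoxc (0.94), interferon-stimulated (0.83), inner root sheath (0.82) and hair shaft genes (0.21). The sebaceous (-0.76), T cell and Langerhans (0.36), macrophage (0.44) and prostaglandin lists (0.44) fell below it too. Under upper quartile scaling, the filter at 5 FPKM, leaving out short RNAs and centring by transcript length (also chosen after seeing the data), both counts stayed within 1.5 times. Of 43 list medians, 11 crossed a size of 1 with a pseudocount of 5, 8 without a filter and 6 with a pseudocount of 0.1. With equal totals 3 did so. Medians that changed but stayed on the same side of 1 were not counted here, such as Hoxb, at 3.01 and, with a pseudocount of 5, 1.47. Medians changed sign with equal totals for other positional factors (-0.31), Wnt targets (-0.21), FGF (-0.18), Hedgehog (-0.05) and retinoid genes (-0.07), and under a changed filter or centring for the Wnt target, BMP and TGF-beta ligand, IGF, xenobiotic and basal keratinocyte lists. All 30 genes furthest apart passed the size rule under each pseudocount and scaling; centring gave 29, since 9030425E11Rik has no transcript length. No paired analysis was possible because each group has 1 library. No library could be left out for the same reason. The depth limits ratios only for genes near 0 at either site, such as Tlx1 with 5 fragments in dorsal epidermis; the spread between mice is unknown.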

Other observations

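The following lists were drawn up after the values were seen and describe genes that the report leaves out. Of 11 Skint genes, which encode butyrophilin-like proteins of keratinocytes known for their part in the selection of epidermal gamma delta T cells, 10 were higher in dorsal epidermis and none in ear (median 2.70). Skint7 stood at 41.2 FPKM in dorsal, 0.951 in WT ear and 2.49 in Koa ear epidermis, and Skint9 at 58.5, 2.86 and 9.83. Skint1, the member that selection depends on, was at 38.3 and 21.2 FPKM at the WT sites and did not pass the size rule. Skint genes are near copies of each other, among which reads of single members are uncertain.

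Of 16 expressed genes of the NF-kB pathway, 9 were higher in dorsal epidermis and none in ear (median 1.13). These were mainly its feedback inhibitors and targets: Tnfaip3 stood at 68.4 against 7.0 FPKM, Nfkbia at 539 against 70.5 and Icam1 at 56.2 against 8.2. The subunit gene Rela was at 40.1 and 26.5 FPKM. Of 14 stress genes of Atf4 and p53, 5 were higher in dorsal and 1 in ear epidermis, with Cdkn1a at 298 against 46.1 FPKM and Asns, which makes asparagine, at 43.5 in ear against 17 in dorsal epidermis.

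On the ear side, 8 of 29 expressed genes of fatty acid synthesis and peroxisomes were higher and none was higher in dorsal epidermis (median -0.41). Acoxl stood at 32.2 FPKM in ear and 2.96 in dorsal epidermis, Acox2 at 17.1 and 1.51, and Gpam, which starts glycerolipid synthesis, at 38.3 and 6.11. Sterol synthesis was mixed, with 4 of 17 members higher in ear and 1 in dorsal epidermis. Of 81 expressed ribosomal protein genes, whose transcripts are short, 79 lay above 0 (median 0.68) and 8 passed the size rule, all toward dorsal; 11.5% of all genes did so, and the share of these members is not above it.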
